A study of Mus musculus with 24 samples.

Results

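Combination tumours were mouse mammary tumours treated with ORIN1001, an inhibitor of the RNase of IRE1α, together with docetaxel, a taxane that stabilises microtubules. Each of 3 combination tumours gave 1 library of RNA pulled down with J2, a monoclonal antibody against double-stranded RNA, and 1 library of total RNA from the same tumour, called the input. These 6 libraries, 3 J2 and 3 input matched by tumour number, were chosen by their labels from the 24 libraries of the series. The remaining libraries come from 3 docetaxel, 3 ORIN1001 and 3 vehicle tumours, each also with 1 J2 and 1 input library.

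All tumours, controls included, were of 2153L, a p53-null mouse model of triple-negative breast cancer, grown from fragments placed in cleared mammary fat pads of female BALB/c mice aged 6 to 8 weeks. Dosing began at about 100 mm3, with ORIN1001 at 150 mg/kg by gavage every day and docetaxel at 10 mg/kg into the peritoneum every week. Mice on 1 drug were also given vehicle. The labels call the material bulk tumour cells, so RNA of host stroma and immune cells is counted with that of the tumour, and fewer cells of a type cannot be told apart from less RNA per cell. The series describes the 3 tumours of a group as biological replicates, and all come from the 1 transplantable line.

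Long double-stranded RNA arises in mouse cells where both strands of the mitochondrial genome are transcribed, where inverted repeats such as SINEs fold back on each other within a transcript, and where retrotransposons or neighbouring genes are read from both strands. ADAR enzymes edit such duplexes, and the sensors MDA5, PKR, TLR3 and the OAS proteins answer to them by starting interferon signalling, blocking translation or activating RNase L. IRE1α, the kinase and RNase of the unfolded protein response, splices Xbp1 mRNA and cuts other mRNAs at the endoplasmic reticulum.

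Ribosomal RNA filled much of the combination J2 libraries. The rows Gm26917 and Gm42418, gene models that collect ribosomal RNA reads, together held 37.9, 56.6 and 22.7% of gene counts in the J2 libraries of combination tumours 1, 2 and 3, against 1.29, 2.86 and 1.09% in their inputs. Every combination J2 library lay above every combination input, and above the 1.25 to 13.8% of the other 9 J2 libraries. Gm42418 had a log2 fold change of +3.85 ± 0.52 (SE of the edgeR fit, n = 3 tumours, adjusted p = 0.000192) and Gm26917 one of +6.65 ± 1.37 (adjusted p = 0.00212). The increase exceeded the mean of the other 3 treatments for Gm42418 (difference +3.16 ± 0.56, adjusted p = 0.000856), while for Gm26917 the difference did not pass (+3.36 ± 1.35, adjusted p = 0.0627). The combination J2 libraries held 2.54, 4.69 and 11.0 M gene counts (M, counts in 1e6) and the inputs 14.1, 11.9 and 15.7 M, beside 6.69 to 18.7 M in the other J2 libraries. Docetaxel tumour 3 stood apart from the other tumours, with an input of 3.27 M gene counts of which 67.1% lay in the ribosomal RNA rows. That pair of libraries widens the spread that the fit shares across treatments, so the main transposable element results are given with and without it.

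**Figure D1:**
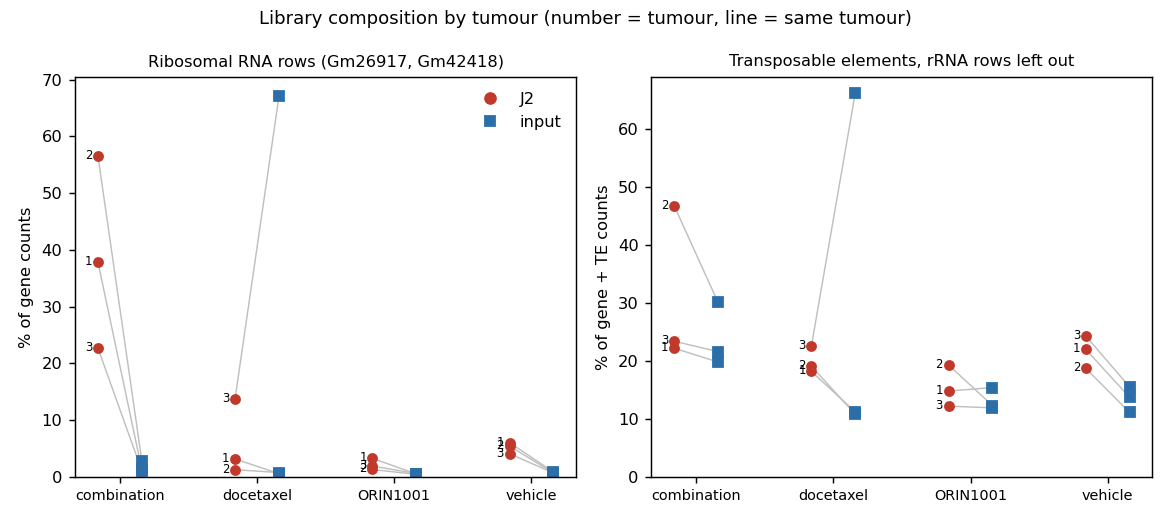
Percent of gene counts in the ribosomal RNA rows (left panel) and percent of gene plus transposable element counts in transposable elements once those rows are left out (right panel), for the J2 (circles) and input (squares) library of each tumour, joined by a line and numbered by tumour. The combination J2 libraries sit at 22.7 to 56.6% ribosomal RNA and their inputs at 1.09 to 2.86%.

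Of 17338 genes tested, 2825 (16.3%) were higher in J2 than in input libraries of combination tumours and 3550 (20.5%) were lower, 36.8% in all, at an adjusted p under 0.05 (edgeR quasi-likelihood F test with the tumour as a block, Benjamini-Hochberg over all genes). The median log2 fold change over all genes was -0.13. Without the ribosomal RNA rows 2956 genes were higher and 3425 lower, and without tumour 3 the test called 3248 genes in all. Scaling sets this balance: with library totals alone in place of TMM factors the median over all genes moved to -1.07, and 252 genes were then called higher and 6452 lower. Of the named genes called higher below, Col3a1, Col5a1, Lama5, Kmt2d, Plec, Rps3, Mx2, Bst2, Nlrc5, Espl1, Aurkb, Ier5, Snora23, Mir1931, Scarna13, Scarna17, Meg3 and Airn were not called with library totals alone (log2 fold changes of +0.04 to +1.77). Oasl1 (-0.16), Oas1b (-0.07), Adar (-0.37) and Edem1 (-0.07), also called higher below, were not called either and changed sign. All values below are therefore relative to the bulk of genes, and normalised CPM (counts per 1e6) refer to the TMM-scaled library. The share called higher grew with the level of the gene, at 7.08, 11.3, 18.2 and 28.6% over 4 equal bins of rising mean expression. Genes whose annotated 3′ end overlaps that of a neighbour on the opposite strand made up 12.2% of the genes called higher, 9.39% of those called lower and 10.8% of all genes with a strand in the annotation used.

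Rows of light-strand genes of the mitochondrial genome rose in J2 libraries of combination tumours, while no heavy-strand mRNA passed the test. Strands are named here by the annotated gene. How strand was treated in counting is not given, so a row may also hold reads of the opposite strand. The light strand encodes mt-Nd6, a subunit of respiratory complex I, and 8 tRNAs. Normalised CPM of mt-Nd6 were 906, 8779 and 1542 in J2 libraries of tumours 1, 2 and 3, against 178, 107 and 92.3 in inputs, and the log2 fold change was +4.23 ± 1.17 (adjusted p = 0.0117). All 3 J2 values lay above all inputs, with tumour 2 the highest by far. The 5 light-strand tRNAs that could be tested, mt-Te, mt-Ty, mt-Tq, mt-Ta and mt-Tp, were all called higher, by +6.72, +6.28, +5.85, +4.61 and +2.88, and each was higher in J2 in 3 of 3 tumours. Over all genes 16.3% were called higher. Input levels were low, at 0.550, 0.189 and 0.186 CPM for mt-Te, 0.440, 0.126 and 0.232 for mt-Ty and 0.275, 0.566 and 0.186 for mt-Ta. The filter could keep such tRNAs through their J2 libraries, and the rest of the 8 had too few counts to be tested. The list median was +5.85, and it was -3.18 in docetaxel, +1.47 in ORIN1001 and +2.59 in vehicle tumours. The difference from the mean of the other treatments passed for 2 of the 5, both higher. The call for mt-Nd6 was lost without tumour 2 (+3.25, adjusted p = 0.0732) and without tumour 3 (+4.40, adjusted p = 0.0689), and those for mt-Tq (adjusted p = 0.0559 and 0.0562), mt-Ta (0.19 without tumour 2 and 0.0609 without tumour 1) and mt-Tp (0.067 to 0.215) were lost likewise, while mt-Te and mt-Ty passed without any 1 tumour.

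Heavy-strand transcripts, which hold most of the mitochondrial mRNAs, differed between the tumours. None of the 9 heavy-strand mRNAs tested was called in either direction by edgeR (2 at an unadjusted p under 0.05), against 3 higher with no filter, 2 without tumour 1 or without docetaxel tumour 3, 1 with DESeq2 and 1 with limma-voom. Their median log2 fold change was +0.68, or -0.17 with library totals alone and -0.75 without tumour 2. The log2 ratio of J2 to input for mt-Nd2 was -2.9 in tumour 1, +3.96 in tumour 2 and -0.124 in tumour 3. For mt-Cytb, which encodes cytochrome b of complex III, the same ratios were -2.24, +3.04 and -0.862. mt-Nd5, whose gene neighbours mt-Nd6 on the other strand, had ratios of -0.401, +6.06 and +2.87 and missed the threshold (+2.85, adjusted p = 0.0881), but passed without tumour 1 (+4.46, adjusted p = 0.018) and without docetaxel tumour 3 (+2.87, adjusted p = 0.0133). Mitochondrial rows held 0.405, 2.56 and 0.835% of gene counts in the J2 libraries and 1.2, 0.652 and 0.785% in the inputs, and tumour 2, which had the highest of these shares, also had the largest ribosomal RNA share; the part of either in the result was not tested. In the other treatments the heavy-strand mRNAs were lower in J2, with median log2 fold changes of -4.32 in docetaxel, -3.79 in ORIN1001 and -3.37 in vehicle tumours. The difference between combination tumours and the mean of the other treatments passed for 8 of the 9, each higher in combination tumours (mt-Nd5 +5.74, adjusted p = 0.00606, and mt-Co1, the exception, +2.56, adjusted p = 0.0581). Over all genes that contrast called 16.6% higher and 20.6% lower. Some of these rows were near the floor, with combination inputs of 1.375, 0.126 and 0.558 CPM for mt-Co2 and 1.87, 0.377 and 1.02 CPM for mt-Co3. For mt-Co1 the inputs were 3298, 1612 and 3082 CPM.

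**Figure D2:**
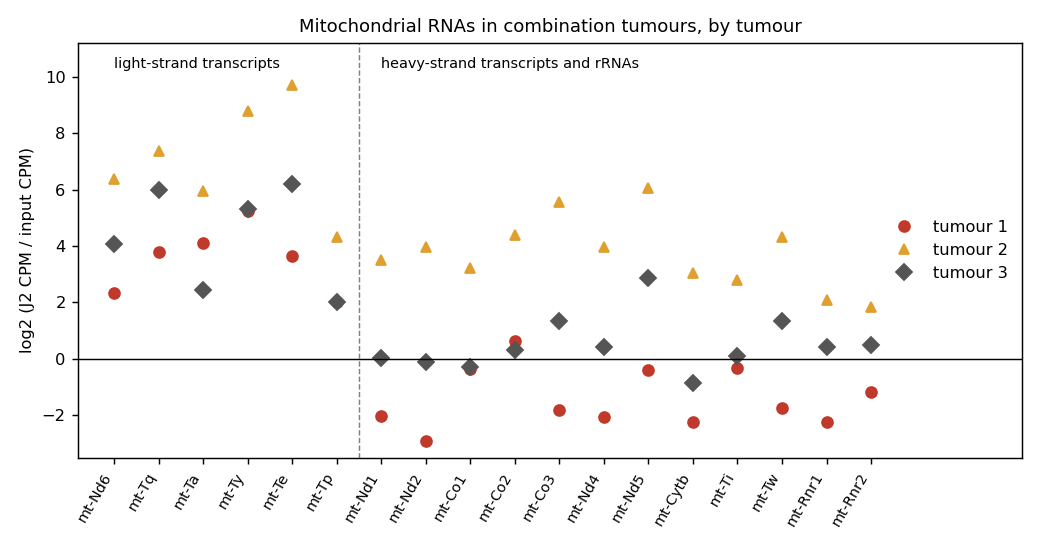
Log2 ratio of normalised CPM, J2 over input, for mitochondrial transcripts in combination tumours 1, 2 and 3. Rows of light-strand genes lie above 0 in all 3 tumours, whereas heavy-strand mRNAs and rRNAs lie mostly below 0 in tumour 1 and above 0 in tumour 2. Strand is that of the annotated gene, and a row may hold reads of the opposite strand.

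Of 17 transposable element families, the young LINE-1 elements and B2 SINEs were the 2 that passed the test, both higher in J2. LINE-1 elements of the L1Md families (A, T, Gf and F types) include the copies that still move in the mouse genome, and B2 elements are short repeats derived from a tRNA and transcribed by RNA polymerase III. L1Md counts made up 0.581, 6.38 and 2.06% of gene plus element counts in J2 libraries, against 0.257, 0.332 and 0.257% in inputs. The J2 share was above the input share in every tumour, least in tumour 1. As a summed family L1Md had a log2 fold change of +3.70 ± 0.62 (adjusted p = 0.000497 over 17 families), and +3.72 (adjusted p = 1.66e-05) without docetaxel tumour 3. B2 counts made up 1.41, 5.22 and 2.34% of J2 and 0.975, 1.33 and 0.986% of input counts, with a log2 fold change of +2.14 ± 0.54 (adjusted p = 0.0111). Without docetaxel tumour 3 that value was +2.17 (adjusted p = 6.94e-05). No combination input reached the B2 share of any combination J2 library. These were the 2 families called, 11.8% of the 17; the B2 call was lost without tumour 2 (+1.57, adjusted p = 0.0753) and without pairing (adjusted p = 0.104). Without docetaxel tumour 3, 7 families were higher (41.2%) and 5 lower (29.4%), 70.6% in all. As summed families, DNA transposons (+1.22) and IAP retroviruses (+1.12) were then among the higher ones, and the lower ones were the old repeats L2 (-1.12), B4 and ID (-1.09), MIR (-0.81) and B3 (-0.67) and the ancient LTR group (-0.66). By single names, 8 DNA transposons were then higher and 153 lower, and 8 IAP names were higher and 7 lower. The 1 name FordPrefect held 79728 of the 89335 J2 counts of DNA transposons in tumour 1. The same counts were 45390 of 62913 in tumour 2 and 183841 of 234407 in tumour 3.

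As a summed family, L1Md enrichment was larger in combination tumours than the mean of the other treatments. By single names the difference did not pass for L1Md_F2 (adjusted p = 0.165) or L1Md_A (adjusted p = 0.14). Family differences with 1 combination tumour left out are not given here. The difference was +2.75 ± 0.67 on the log2 scale (adjusted p = 0.0168), and +2.74 (adjusted p = 0.000308) without docetaxel tumour 3. For B2 the difference was +1.43 ± 0.61 and did not pass (adjusted p = 0.183), but it passed without docetaxel tumour 3 (+1.26, adjusted p = 0.00858). In J2 of combination tumour 1 the L1Md share was 0.581%. Outside the combination the L1Md share of J2 libraries was 0.113 to 0.404% except in docetaxel tumour 3, where it was 4.88%. That library also had 13.8% of its gene counts in ribosomal RNA rows and 5.28% of its counts in B2, and whether these move together for a shared reason was not tested.

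**Figure D3:**
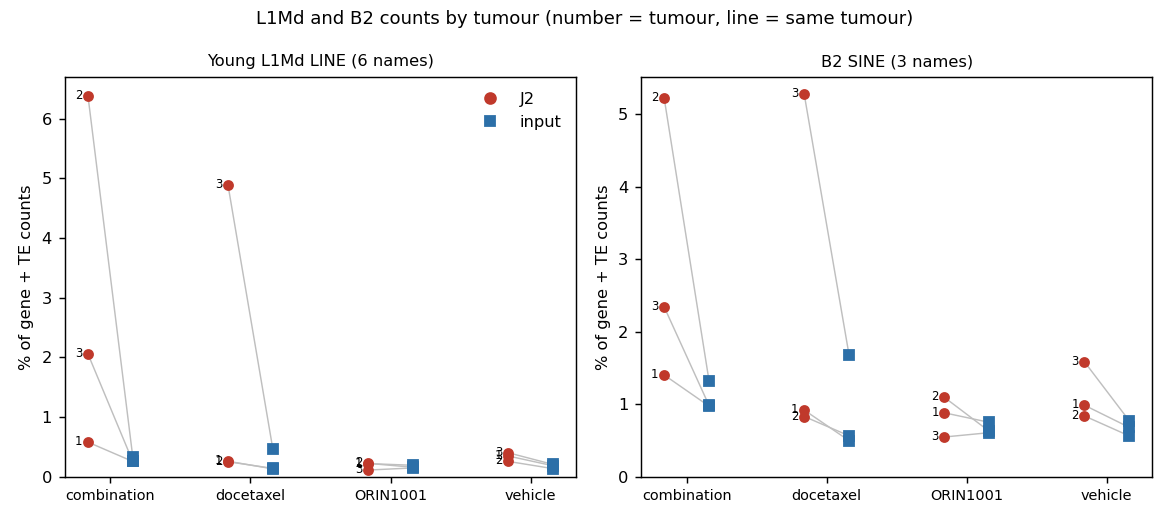
Percent of gene plus transposable element counts in 6 L1Md names (left) and 3 B2 names (right) for the J2 (circles) and input (squares) library of each tumour. Combination tumours 2 and 3 and docetaxel tumour 3 have L1Md shares of 2.06 to 6.38% in J2, and no input exceeds 0.465%.

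Of 1046 element names tested, 37 (3.54%) were higher in J2 and 6 (0.574%) lower, 4.11% in all. The 37 include all 6 L1Md names, from L1Md_F2 and L1Md_A (both +3.91) to L1Md_F (+2.99), 2 of 3 B2 names, and 9 of 124 names of other LINE-1 families. FordPrefect, a DNA transposon, had 35200, 16190 and 15280 normalised CPM in J2 libraries, against 704, 1301 and 587 in inputs (+4.66 ± 1.03, adjusted p = 0.0267). The retroviral sequence RLTR6-int had 4144, 3099 and 2262 CPM in J2 and 205, 263 and 201 CPM in inputs (+3.79 ± 0.82, adjusted p = 0.0251). For both, all J2 values were far above all inputs, and unlike L1Md the highest value was in tumour 1. LTRIS4, a retroviral long terminal repeat, had 71.5, 310 and 46.4 CPM in J2, against 3.55, 8.17 and 3.21 CPM in inputs (+4.48 ± 0.45, adjusted p = 0.000401). RLTR10D (+3.94), MamRep1879 (+3.94) and RLTR13A1 (+3.80) were the remaining names among the 8 largest rises. The names that fell were all of the rodent RLTR and RMER group, led by RLTR48B (-3.43 ± 0.57, adjusted p = 0.0091), RLTR5_Mm (-3.21) and RLTR35B_MM (-2.98), then RLTR10E (-2.08) and RLTR30D_RN (-1.73), with RLTR53B_Mm at 0 in all 3 J2 libraries and 1.07, 1.13 and 0.596 CPM in inputs. LTRIS4 was called without any 1 tumour, though not without the pairing of libraries (adjusted p = 0.0711). RLTR10E lost its call without the ribosomal RNA rows (adjusted p = 0.0568), and with DESeq2 size factors it (0.0803), RLTR5_Mm (0.0607), RLTR35B_MM (0.0664) and RLTR30D_RN (0.0692) did. FordPrefect, RLTR6-int, MamRep1879 and the named falls other than RLTR48B and RLTR53B_Mm were not called once any 1 tumour was left out (adjusted p of 0.0736 to 0.474), and L1Md_F2, L1Md_A, RLTR10D, RLTR13A1 and RLTR48B not without tumour 3 (adjusted p of 0.108 to 0.128). The number of names called was 15 without tumour 2, 2 without tumour 3 and 7 without the pairing of libraries. Without docetaxel tumour 3 it was 148 higher (14.1%) and 597 lower (56.7%) of 1052 names, 70.8% in all. FordPrefect (+4.69, adjusted p = 2.95e-07), RLTR6-int (+3.82, 5.91e-08) and RLTR10E (-2.15, 4.2e-05) then changed little in size and had much smaller adjusted p.

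Genes of microRNA hairpins were called higher more often than lower. Of 67 tested, 21 were higher and 2 lower, beside 16.3% and 20.5% of all genes. The median log2 fold change was -0.06. Only these 67 of 1168 hairpin genes passed the filter, which keeps a gene with enough counts in a few libraries, J2 or input. A gene nearly absent from inputs could thus be tested through its J2 libraries, so the lean may be set in part by the filter. Without tumour 3, 9 were higher and none lower, and with library totals alone 12 were higher and 10 lower. The list medians were +0.84 in docetaxel, +0.79 in ORIN1001 and +1.65 in vehicle tumours, all above that of combination tumours. The difference from the mean of the other treatments was higher for 8 and lower for 14, beside 16.6% and 20.6% of all genes. The input levels of these genes were low, and reads over such a short gene can belong to a longer transcript around it. Hairpins of 51 of the 67 were found in the RefSeq table (GRCm38.p6), and they are shown because 4 of them share letters, GCUGGNGNGNUGGCU, that also open B2 elements. This motif was built from those 4 hairpins after the values had been seen, with N where they differ, and searched on both strands. Its match to the 4, all called higher, was thus fixed in advance and says nothing of enrichment. Those 4 are the only ones of the 51 that carry it, and it occurs in 10 of the 1005 RefSeq hairpins searched (0.995%). In the hairpins below, the capitals mark the motif or its reverse complement, and Mir5622 and Mir703 are shown without it.
Mir3473a, chrX:162874918-162874995, minus strand: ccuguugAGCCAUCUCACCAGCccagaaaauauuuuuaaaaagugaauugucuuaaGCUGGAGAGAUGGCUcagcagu
Mir3473d, chr8:111016450-111016530, minus strand: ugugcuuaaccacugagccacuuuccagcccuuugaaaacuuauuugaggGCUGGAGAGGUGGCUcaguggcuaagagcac
Mir5128, chr2:37688201-37688284, minus strand: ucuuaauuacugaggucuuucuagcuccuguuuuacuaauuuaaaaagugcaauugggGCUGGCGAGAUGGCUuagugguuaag
Mir1931, chr10:93162785-93162903, plus strand: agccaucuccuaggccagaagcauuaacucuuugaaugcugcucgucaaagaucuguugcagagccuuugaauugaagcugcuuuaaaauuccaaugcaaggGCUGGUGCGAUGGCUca
Mir5622, chr2:152865067-152865126, plus strand: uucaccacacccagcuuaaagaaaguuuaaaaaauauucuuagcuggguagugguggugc
Mir703, chr5:98475556-98475664, minus strand: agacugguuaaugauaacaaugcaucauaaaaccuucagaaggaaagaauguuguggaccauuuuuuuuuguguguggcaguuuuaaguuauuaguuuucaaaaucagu

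Mir3473a carries the motif on both arms, so its 2 arms can pair over it. Its normalised CPM were 5.31, 51.7 and 9.20 in J2 libraries, against 0, 0.314 and 0.186 in inputs (+6.79 ± 1.31, adjusted p = 0.00139). Mir3473d had 4.78, 11.8 and 4.70 CPM in J2 and 0.055, 0.629 and 0.186 CPM in inputs (+4.72 ± 0.69, adjusted p = 0.000271). In both genes every J2 value was above every input. Mir5128 was higher by +2.63 (adjusted p = 0.00402; 0.0553 without tumour 3) and Mir1931 by +1.74 (adjusted p = 0.0301; 0.232 without tumour 2 and 0.104 without tumour 3), and its groups overlapped. Mature forms, with the seed in capitals, differ in seed among the 4 genes.
Mir3473a: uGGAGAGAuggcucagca
Mir3473d: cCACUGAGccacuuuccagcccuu
Mir5128: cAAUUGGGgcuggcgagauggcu
Mir1931: aUGCAAGGgcuggugcgauggc

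Other hairpin genes rose without that motif. Mir5622 had 6.91, 14.0 and 6.80 CPM in J2, against 0.165, 0.943 and 0.325 CPM in inputs (+4.38 ± 0.92, adjusted p = 0.00238), and Mir703 had 6.91, 7.89 and 5.70 CPM against 1.93, 0.189 and 0.232 CPM (+3.62 ± 0.60, adjusted p = 0.00066). For each, the J2 values lay above all inputs. Mir703 differed from the other treatments, in which its log2 fold changes were -2.27 in docetaxel, -0.87 in ORIN1001 and -0.91 in vehicle tumours (difference +4.97 ± 0.69, adjusted p = 0.000278). Mir378a, whose hairpin gives a microRNA of energy metabolism, rose by +4.31 ± 0.46 (adjusted p = 6.92e-05). Mir8111 had no count in any input and 3.19, 11.0 and 0.800 CPM in J2, highest in tumour 2, and Mir706 rose by +4.67 (adjusted p = 0.0134; 0.0538 without tumour 1 and 0.0944 without tumour 3).

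Small structured RNAs of the Cajal body rose, and nucleolar ones moved both ways. Cajal body RNAs guide the modification of spliceosomal RNAs. Of 5 Cajal body and vault RNAs tested, 4 were higher and none lower, beside 16.3% and 20.5% of all genes, with a median of +2.22. Scarna2 had 521, 443 and 570 normalised CPM in J2 libraries, against 48.0, 99.2 and 41.2 in inputs (+3.14 ± 0.38, adjusted p = 0.000112). Scarna6 had 19.7, 33.8 and 10.2 CPM in J2 and 5.94, 4.02 and 2.79 CPM in inputs (+2.22 ± 0.39, adjusted p = 0.000811). Both were higher in J2 in every tumour. Scarna13 (+2.78) and Scarna17 (+2.08) had tumour 1 J2 values within the range of the inputs, and lost their calls without tumour 2 (adjusted p = 0.0609 and 0.115) or tumour 3 (0.0864 and 0.0918). All 4 differed from the mean of the other treatments, where the list medians were -1.06, -0.69 and -1.14 in docetaxel, ORIN1001 and vehicle tumours. Among 29 small nucleolar RNA genes, 5 rose and 5 fell, near the shares of all genes, but 3 and 0 without tumour 3; Snord17 (+2.75), Snora23 (+2.45) and Snora73b (+3.69) rose, and Snora69 (-3.99, adjusted p = 0.00729, and 0.0717 without tumour 3) fell.

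Several nuclear genes reached J2 levels far above their inputs. Trub2, which encodes a mitochondrial pseudouridine synthase, had 663, 3555 and 616 normalised CPM in J2 libraries, against 38.7, 54.9 and 42.4 in inputs (+4.64 ± 1.06, adjusted p = 0.00383). Its gene (chr2:29761223-29787671, minus strand, GRCm38.p6) overlaps Coq4 on the other strand. Rpa1, the large subunit of the single-stranded DNA binding protein RPA, had 1169, 3542 and 1344 CPM in J2, against 94.8, 83.5 and 84.3 CPM in inputs (+4.33 ± 0.97, adjusted p = 0.00341). Rpa1 (chr11:75300259-75348454, minus strand) overlaps Smyd4 on the other strand. Rsl24d1, a factor in large ribosomal subunit assembly, had 547, 1837 and 969 CPM in J2 and 55.4, 119 and 61.8 CPM in inputs (+3.74 ± 0.39, adjusted p = 6.79e-05). In these 3 genes every J2 library was above every input, with the highest value in tumour 2. Rpa1 and Rsl24d1, like Lars2, Igf2os, Col7a1 and Mlec, were chosen after their values had been seen. No gene on the other strand was annotated over Rsl24d1, Lars2, Col7a1 or Mlec. Lars2, which encodes mitochondrial leucyl-tRNA synthetase and whose row is known to collect ribosomal RNA reads, had 10840, 32600 and 1988 CPM in J2 and 969, 1735 and 610 CPM in inputs (+3.16 ± 0.57, adjusted p = 0.000973). Igf2os, transcribed opposite the growth factor gene Igf2, had 1371, 1596 and 1521 CPM in J2, against 190, 226 and 154 CPM in inputs (+2.99 ± 0.35, adjusted p = 0.000106). Its J2 values were near equal across the 3 tumours, unlike those of Trub2. Mlec, a lectin of the endoplasmic reticulum, rose by +2.06 (adjusted p = 0.000617), and the difference from the other treatments was not past the threshold (+0.40, adjusted p = 0.444).

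The remaining genes among the 12 largest rises had little RNA in the inputs. Gnao1, a G protein subunit of neurons, had 6.38, 56.5 and 9.10 CPM in J2, against 0.165, 0.0629 and 0.232 CPM in inputs (+6.71 ± 1.30, adjusted p = 0.00144). Zfp972, a zinc-finger gene, had 9.56, 221 and 27.3 CPM in J2 and 0.880, 0.566 and 0.558 CPM in inputs (+6.10 ± 1.37, adjusted p = 0.0035). Itln1, an intestinal lectin, rose by +4.94 (adjusted p = 0.00633, and 0.0708 without tumour 2), and Actl7b, an actin-like protein of the testis, by +7.16 (adjusted p = 0.00674, and 0.078 without tumour 2). All 4 had their highest J2 value in tumour 2. For Gnao1 and Zfp972 the J2 enrichment differed from the mean of the other treatments (+7.41, adjusted p = 0.00192, and +6.24, adjusted p = 0.00614), though for Zfp972 not without tumour 2 (adjusted p = 0.0599). In docetaxel tumours, which are part of that mean, the log2 fold changes were -5.11 and -2.65.

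**Figure D4:**
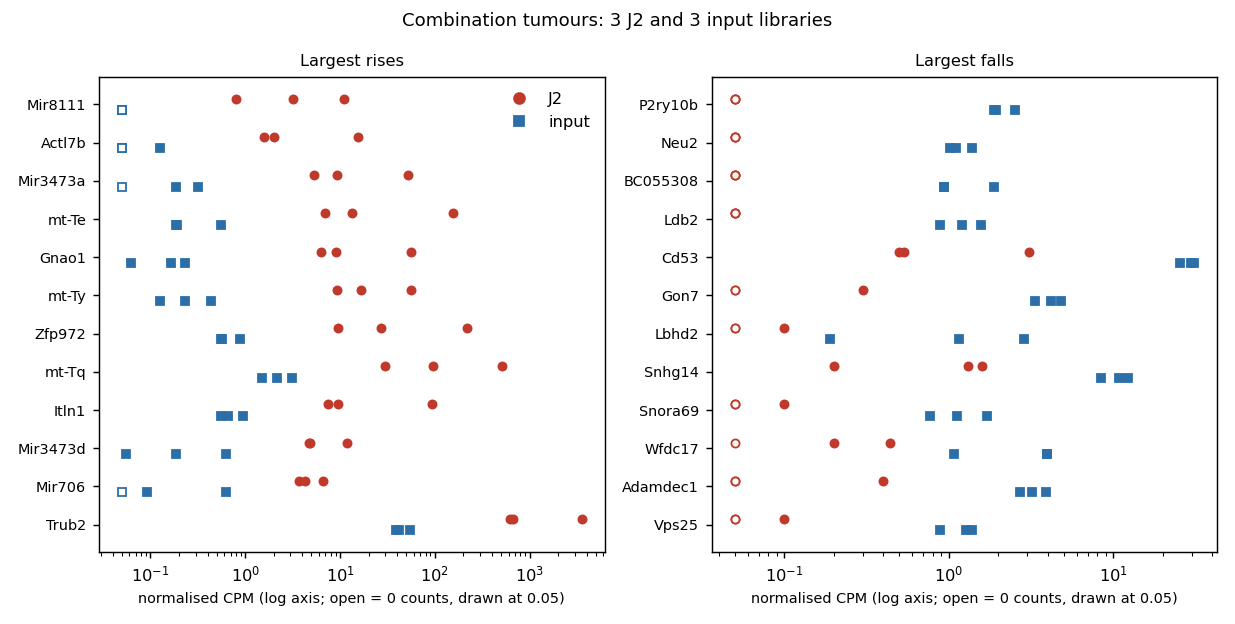
Normalised CPM on a log axis in the 3 J2 (circles) and 3 input (squares) libraries of combination tumours, for the 12 genes with the largest rises (left) and the 12 with the largest falls (right) among genes past the threshold with 1 direction in all 3 tumours. Open symbols are 0 counts, drawn at 0.05.

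Collagen mRNAs were among the more abundant RNAs that J2 enriched. Of 23 secreted collagen and matrix genes, 8 were higher and 2 lower, beside 16.3% and 20.5% of all genes, and with library totals alone 2 were higher and 6 lower. Col1a1, the major collagen of connective tissue, had 727, 2911 and 1525 normalised CPM in J2 libraries, against 122, 345 and 167 in inputs (+2.95 ± 0.35, adjusted p = 0.000112). Col1a2, which encodes the partner chain, had 199, 677 and 400 CPM in J2 and 53.0, 142 and 80.8 CPM in inputs (+2.16, adjusted p = 0.000106). In each tumour the J2 value was above that of its own input, and tumour 2 was highest in both. Col3a1 (+1.76), Col5a1 (+1.47) and Lama5 (+1.70) rose too, while Postn and Thbs2, matricellular proteins, fell by 1.02 each (adjusted p = 0.108 and 0.0804 without tumour 3). Col7a1, the anchoring fibril collagen, had 342, 931 and 320 CPM in J2, against 27.7, 65.1 and 23.2 CPM in inputs (+3.75 ± 0.62, adjusted p = 0.00053). For 13 of the 23 genes the enrichment was higher in combination tumours than the mean of the others, among them Col1a1 (+2.61) and Col3a1 (+2.11, adjusted p = 0.000236).

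Very long mRNAs and clustered protocadherins also leaned towards J2, as they did in the other treatments. Among 20 giant mRNAs, 6 were higher and none lower, beside 16.3% and 20.5% of all genes, with a median of +0.36 (4 higher without tumour 3); Kmt2d, a histone methyltransferase (+1.57, adjusted p = 0.000402), and Plec, a cytoskeletal linker (+1.46, adjusted p = 0.000725), were the strongest. With library totals alone none of these 20 was higher and 3 were lower. The median of the giant mRNAs was +0.10 in docetaxel, +0.49 in ORIN1001 and +0.55 in vehicle tumours. Of 26 protocadherins, cell adhesion proteins made from alternative first exons that share their 3′ exons, 8 were higher and none lower (median +0.88; 5 higher without tumour 3, and 4 higher and 4 lower with library totals alone). Reads in the shared exons may be counted to several members. Pcdhga10 had 5.85, 11.0 and 5.90 CPM in J2, against 0.440, 2.39 and 0.604 CPM in inputs (+2.96 ± 0.44, adjusted p = 0.000314), and Pcdhgb7 rose by +2.70 (adjusted p = 0.000309). The median of this list was +1.02 in docetaxel, +0.58 in ORIN1001 and +0.68 in vehicle tumours. Of 347 zinc-finger genes named Zfp, 48 were higher and 78 lower, near the shares of all genes, with a median of -0.28; without tumour 3, 25 were higher and 43 lower.

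Histone, respiratory chain and ribosomal protein mRNAs were lower in J2 more often than higher. Of 61 replication-dependent histone genes, whose mRNAs end in a stem loop in place of a poly(A) tail, 35 were lower and 1 higher, with a median of -1.24, beside 20.5% of all genes lower. Without tumour 3, 15 histone genes were lower. Hist1h4d fell by 2.21 (adjusted p = 8.91e-05) and Hist1h2ae by 2.26 (adjusted p = 0.000325). Of 95 nuclear-encoded respiratory chain genes 32 were lower (14 without tumour 3) and 2 higher, with a median of -0.57, led by Cox7c (-2.08 ± 0.21, adjusted p = 6.79e-05) and Ndufc1 (-1.85, adjusted p = 0.000159). Of 88 cytosolic ribosomal protein genes 29 were lower and 8 higher (median -0.59), with 13, 47 and 7 lower when tumour 1, 2 or 3 was left out. Rpl27 had 48.9, 28.9 and 25.4 normalised CPM in J2 libraries, against 222, 67.6 and 163 in inputs (-2.06 ± 0.29, adjusted p = 0.000224). Rps3 went the other way, with 614, 693 and 642 CPM in J2 and 333, 243 and 287 CPM in inputs (+1.18, adjusted p = 0.000586). Ribosomal protein genes have many processed pseudogenes that can take or lend reads. The difference from the other treatments was higher for 18 histone, 32 respiratory chain and 37 ribosomal protein genes and lower for 0, 4 and 1, where all genes gave 16.6% higher and 20.6% lower.

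The 12 largest falls were of genes with few or no J2 counts. P2ry10b, Neu2, BC055308 and Ldb2 had no count in any of the 3 J2 libraries, which makes them at least 9.95-fold, 5.52-fold, 5.90-fold and 5.77-fold lower than in inputs against a floor of 3 counts over the J2 group. Cd53, a tetraspanin of leukocytes, had 0.531, 3.07 and 0.500 CPM in J2, against 25.3, 29.8 and 31.1 CPM in inputs (-4.83 ± 0.55, adjusted p = 0.000106). Snhg14, the long host transcript of small nucleolar RNAs that runs antisense to Ube3a, had 1.59, 1.32 and 0.200 CPM in J2 and 8.36, 12.2 and 10.9 CPM in inputs (-4.00 ± 0.67, adjusted p = 0.00059). All J2 values of these genes were below all inputs. Gon7 (-4.35), Lbhd2 (-4.06), Wfdc17 (-3.95), Adamdec1 (-3.82) and Vps25 (-3.80) completed the 12 with Snora69; Lbhd2 was not called without tumour 1 (adjusted p = 0.0673) or tumour 3 (0.108), and Neu2 not without tumour 3 (0.0515). Among more abundant mRNAs, picked after their values had been seen, Sdcbp, the adaptor syntenin, had 31.4, 35.5 and 32.2 CPM in J2, against 146, 140 and 151 CPM in inputs (-2.14 ± 0.19, adjusted p = 6.57e-05).

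Long nuclear noncoding RNAs moved in both directions, at counts near the shares of all genes (16.3% higher and 20.5% lower). Of 12 tested, with a median of +0.36 (-0.59 with library totals alone), Kcnq1ot1 and Malat1 were lower, and Meg3 (+1.44, adjusted p = 0.0241) and Airn (+1.29, adjusted p = 0.0384) higher. Kcnq1ot1, the imprinted silencing RNA antisense to Kcnq1, had 437, 260 and 424 normalised CPM in J2 libraries, against 1254, 2691 and 1402 in inputs (-2.19 ± 0.39, adjusted p = 0.000901). Malat1, an RNA of nuclear speckles, had 2101, 1965 and 1860 CPM in J2 and 4292, 5926 and 3715 CPM in inputs (-1.21 ± 0.32, adjusted p = 0.01, and 0.0678 without tumour 2). The groups did not overlap for either gene. The rises of Meg3 and Airn did not hold without tumour 1 (adjusted p = 0.0831 and 0.064) or tumour 2 (0.135 and 0.119), and that of Airn not without tumour 3 (0.181). For Kcnq1ot1 the other treatments had log2 fold changes of +1.70 in docetaxel, +0.11 in ORIN1001 and +1.44 in vehicle tumours, and the difference was -3.27 (adjusted p = 0.000236). Enrichment was lower than elsewhere for 7 of the 12 and higher for 1, where all genes gave 20.6% lower and 16.6% higher.

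**Figure D5:**
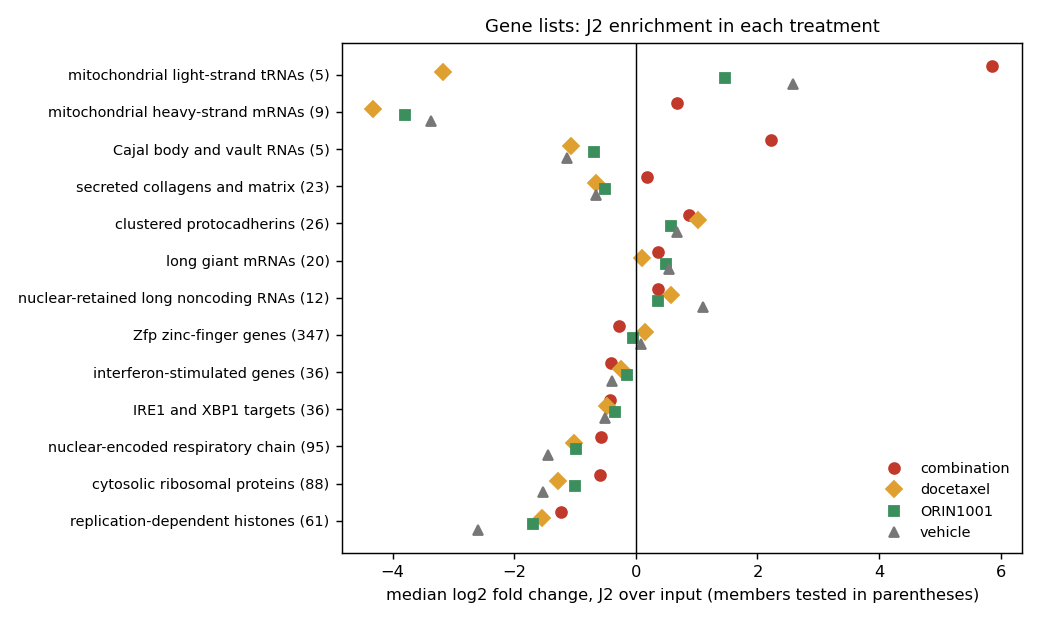
Median log2 fold change, J2 over input, of 13 gene lists in combination (circles), docetaxel (diamonds), ORIN1001 (squares) and vehicle (triangles) tumours, with the number of genes tested in parentheses. Light-strand tRNAs, heavy-strand mRNAs and Cajal body RNAs stand to the right of the other treatments in combination tumours; with library totals alone the combination median is -0.17 for heavy-strand mRNAs, -0.12 for protocadherins, -0.77 for collagens, -0.62 for giant mRNAs and -0.59 for nuclear noncoding RNAs.

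The mRNAs of double-stranded RNA sensors were called about as often as genes at large or less. Of 18 sensor genes 3 were higher, 2 were lower and the median was 0.00, beside 16.3% of all genes higher and 20.5% lower. Tlr3, the endosomal sensor, had 27.6, 9.64 and 20.1 normalised CPM in J2 libraries, against 93.8, 44.1 and 81.0 in inputs (-1.98 ± 0.21, adjusted p = 7.96e-05). Eif2ak2, which encodes PKR, had 37.7, 44.3 and 33.1 CPM in J2 and 87.6, 56.9 and 82.4 CPM in inputs (-0.97 ± 0.19, adjusted p = 0.00161). Both were lower in J2 in 3 of 3 tumours. Oasl1 (+0.80, adjusted p = 0.00493) and Oas1b (+0.88, adjusted p = 0.00683) were higher with TMM scaling and had values of -0.16 and -0.07 with library totals alone. Among 16 genes of double-stranded RNA binding and editing proteins 5 were higher and 4 lower, with 1 higher without tumour 3. The editing enzyme Adar was higher by +0.58 (adjusted p = 0.0112, 0.0723 without tumour 3, and -0.37 with library totals alone), Zfr lower by 1.12 on the log2 scale (adjusted p = 0.000852) and Stau2, a transport protein for structured RNA, lower by 0.86 (adjusted p = 0.00167). Of 3 tested mRNAs listed as carrying long edited hairpins, Optn, an autophagy receptor, was higher (+2.70 ± 0.73, adjusted p = 0.0103; 0.0771 without tumour 2 and 0.0576 without tumour 3) and Slc7a2, a cationic amino acid transporter, lower (-1.25, adjusted p = 0.00321).

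Interferon-stimulated mRNAs were lower more often than higher. Of 36 tested, 16 were lower and 8 higher (median -0.41), against 20.5% and 16.3% of all genes. With tumour 1, 2 or 3 left out, 12, 15 and 11 were lower and 4, 5 and 2 higher. Cxcl9, a chemokine that draws T cells, had 40.4, 36.4 and 27.2 CPM in J2, against 285, 162 and 188 CPM in inputs (-2.60 ± 0.28, adjusted p = 7.51e-05). The GTPases Iigp1 (-1.76, adjusted p = 0.00024) and Irgm2 (-1.75, adjusted p = 0.00024) were lower as well. Bst2, which tethers budding viruses, had 102, 150 and 190 CPM in J2 and 62.3, 48.5 and 49.5 CPM in inputs (+1.44 ± 0.32, adjusted p = 0.00352), and Mx2 was higher by +1.21 (adjusted p = 0.00177). Of 17 genes of MHC and antigen presentation 4 were lower and 2 higher, with 2 lower without tumour 1 or tumour 3. B2m, the light chain of MHC class I, had 116, 62.2 and 30.8 CPM in J2, against 574, 218 and 575 CPM in inputs (-2.77 ± 0.42, adjusted p = 0.000337). Its regulator Nlrc5 was higher (+1.55, adjusted p = 0.00273).

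The IRE1 and XBP1 mRNAs had medians below 0 in J2 in combination tumours and in each of the other treatments. Of 36 mRNAs of the IRE1 and XBP1 programme, which expands the secretory pathway, 14 were lower and 1 higher, beside 20.5% and 16.3% of all genes, with a median of -0.43. The medians were -0.48 in docetaxel, -0.34 in ORIN1001 and -0.51 in vehicle tumours, and the difference from their mean was higher for 7 and lower for 8, beside 16.6% and 20.6% of all genes. In combination tumours 9 were lower without tumour 1 and 8 without tumour 3. Sec61g, a subunit of the translocon, had 0, 0.877 and 1.20 normalised CPM in J2 libraries, against 15.6, 3.27 and 10.7 in inputs (-3.42 ± 0.49, adjusted p = 0.000245). Dnajb9, a cochaperone that binds IRE1α, had 2.66, 0.438 and 2.20 CPM in J2 and 7.43, 8.36 and 8.23 CPM in inputs (-2.14 ± 0.39, adjusted p = 0.000997). All J2 values were below all inputs in these genes. Edem1, of endoplasmic reticulum degradation, was the member called higher (+0.88, adjusted p = 0.00456; 0.0515 without tumour 1, and -0.07 with library totals alone). Of 12 mRNAs reported as substrates of IRE1 decay, 3 were higher, 1 was lower and 8 were not past the threshold; 1 was higher without tumour 1 or tumour 3. Xbp1 itself had 79.7, 78.0 and 60.7 CPM in J2 and 61.4, 45.7 and 66.8 CPM in inputs, with overlapping groups (+0.33 ± 0.36, adjusted p = 0.496). Ern1, which encodes IRE1α, had 53.7, 57.4 and 51.7 CPM in J2, against 38.1, 47.9 and 40.0 CPM in inputs (+0.37 ± 0.15, adjusted p = 0.0715; 0.0327 without docetaxel tumour 3). Trp53 counts, in tumours labelled as p53 knockouts, were 18.6, 41.2 and 21.7 CPM in J2 and 35.7, 20.9 and 26.6 CPM in inputs (-0.06, adjusted p = 0.896), and which exons they cover is not given by counts per gene.

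Among genes tied to the action of docetaxel, tubulin mRNAs leaned lower in J2, as they did in the other treatments. Of 24 genes of mitosis and the spindle checkpoint, 3 were higher and 6 lower, near the shares of all genes (16.3% higher and 20.5% lower) (2 and 2 without tumour 2 or tumour 3, 5 and 3 without tumour 1), with Espl1, the separase that parts sister chromatids (+1.19, adjusted p = 0.000891), and Aurkb, a mitotic kinase (+1.00, adjusted p = 0.00121), the 2 strongest of those higher. Of 11 tubulin genes 4 were lower and none higher (2 lower without tumour 3), and all 11 had log2 fold changes below 0, from -1.03 to -0.47 with a median of -0.64, among them Tuba1a (-0.93, adjusted p = 0.00125) and Tubb5 (-0.97, adjusted p = 0.00281). The tubulin median was -0.68 in docetaxel, -0.76 in ORIN1001 and -1.30 in vehicle tumours. The difference from their mean was higher for 2 tubulin genes and lower for 0, beside 16.6% and 20.6% of all genes. Immediate early genes were higher for 5 of 20 (3 without tumour 2) and lower for 1, beside 16.3% and 20.5% of all genes. Ier5 had 240, 463 and 284 CPM in J2, against 114, 151 and 92.2 CPM in inputs (+1.44 ± 0.20, adjusted p = 0.00024), and its J2 values lay above all inputs. With library totals alone none of the 20 was higher and 4 were lower.

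Cell type markers gave the setting for these values. Epithelial and tumour markers were well counted, with Epcam at 562, 284 and 459 CPM and Krt8 at 396, 240 and 311 CPM in inputs, and 259, 311 and 280 CPM and 176, 409 and 325 CPM in J2 libraries. Neither differed past the threshold between J2 and input, but Epcam (-0.57, adjusted p = 0.0894) was called lower under 6 alternatives: without tumour 2 (-0.87), without docetaxel tumour 3 (-0.55), with library totals alone (-1.52), with no filter (-0.65), with DESeq2 (-0.56) and with limma-voom (-0.70). Macrophage markers were lower for 4 of 12, T cell markers for 2 of 14, and B and plasma cell markers for 2 of 4, with none higher in the 3 lists, where 20.5% of all genes were lower. Without tumour 3 these counts were 0, 1 and 0, and without tumour 1 they were 1, 0 and 0. The 12 macrophage markers summed to 336, 561 and 368 CPM in J2 and 617, 440 and 664 CPM in inputs, and Cd79a, Ms4a1, Hba-a1, Adipoq, Acta1 and Ckm were too low to be tested. Fibroblast markers were higher for 3 of 12, which are the collagens Col1a1, Col1a2 and Col3a1, and lower for 1; Pdgfra, another fibroblast marker, had 9.03, 10.1 and 10.8 CPM in J2 and 14.0, 9.87 and 10.2 CPM in inputs, with overlapping groups. The part of cell composition in the J2 values was not tested.

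Where enrichment in combination tumours was compared with the mean of the other treatments, 2875 genes were higher and 3567 lower (37.2% of 17338). Among the largest falls by that contrast, Fut9, a fucosyltransferase, had 4.25, 6.57 and 5.10 normalised CPM in J2 libraries of combination tumours, against 23.5, 33.4 and 25.7 in their inputs (-2.37 ± 0.38, adjusted p = 0.000477). In the other tumours it was enriched by J2, at +2.51 in docetaxel, +1.71 in ORIN1001 and +2.37 in vehicle tumours, and the difference was -4.56 ± 0.44 (adjusted p = 0.000155). Among the largest rises, Snora73b had 10.1, 3.95 and 3.50 CPM in J2, against 1.10, 0.314 and 0.140 CPM in inputs, and log2 fold changes of -2.80, -1.89 and -0.63 in docetaxel, ORIN1001 and vehicle tumours (difference +5.46 ± 0.94, adjusted p = 0.000688). Rab4b, a small GTPase of recycling endosomes, differed by +4.79 (adjusted p = 0.00171). Only 3 of 1046 element names differed (0.287%): LTRIS4 (+2.76 ± 0.47, adjusted p = 0.0384) and GSAT_MM, the major satellite of pericentromeres (+2.94 ± 0.43, adjusted p = 0.0183), were higher (0.191%), and RLTR53B_Mm, without J2 counts, was lower (0.0956%). GSAT_MM had 10.6, 16.4 and 8.31 CPM in J2 of combination tumours and 2.49, 0.886 and 1.12 CPM in inputs. Without docetaxel tumour 3, 63 names were higher and 782 lower by the same contrast.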

How the data were processed

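RNA pulled down with J2 and total RNA were sequenced with a stranded total RNA kit after ribosomal RNA depletion, per the labels' protocols. The authors deposited raw counts per gene (53465 rows, of which 53274 had a symbol) and per transposable element name (1146 rows). Per the submitters' processing notes the tools were fastp 0.23.2, STAR 2.7.3a and featureCounts 2.0.3 with mm10; how strand, multiply mapping reads and reads shared by elements and genes were treated is not given in the sources used here. Library and tumour were taken from the labels, and the pairing of J2 and input from the series' design text; deviations from the group mean correlated between paired libraries by 0.0912, 0.0984 and 0.106 in combination tumours, the lowest of the 12, and by 0.214 to 0.72 in the others. Replicates of a group were distinct libraries.

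Counts were tested with edgeR 4.0.16 (R 4.3.3; quasi-likelihood F test, two-sided, TMM, filterByExpr with a minimum count of 10 and total of 15) in 1 fit of all 24 libraries with the 12 tumours as blocks and 1 J2 coefficient per treatment, leaving 8 residual degrees of freedom. Element names and 17 families, summed by name, were fitted with the genes and adjusted over names or families; family rules were completed after the names had been seen. The difference contrast is the combination J2 coefficient less the mean of the other 3. On simulated counts for the first comparison (17169 genes) 86 of 100 planted log2 changes of 2 and 39 of 100 of 1 were recovered, with 3 of 16969 unchanged genes called. The unchanged genes were given equal scaled means in J2 and input of combination tumours. The simulation therefore cannot show how many false calls arise when library composition shifts as in these J2 libraries. DESeq2 1.42.0 and limma 3.58.1 were alternatives. The members and gene lists were chosen with earlier results of these data known, and lists have no test. Named genes include the 12 largest rises and falls past 0.05 with 1 direction in all tumours and mean log2 CPM of at least 0. Gene models and pseudogenes were left out. The 8 largest each way for elements and for the difference were added, with the ribosomal RNA rows, Ern1, Xbp1 and Trp53. Up to 4 genes per list by p were added as well. Other members were picked outside this rule with results known, among them Oas1b, Adar, Bst2, Mx2, Rps3, Lama5, Postn, Thbs2, Edem1, Mir5622 and Mir1931. Some genes that meet the rule, such as Oas1g and Adarb1, both higher, are not described. Gene positions and hairpins are from RefSeq. Floors cover counting error only.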

Additional observations from a re-analysis of the deposited data

Results flagged for a closer look

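The following J2 enrichments differed between combination tumours and the mean of the docetaxel, ORIN1001 and vehicle tumours by the edgeR test of that difference itself, and are the largest in each direction among genes with 1 direction of J2 against input in all 3 combination tumours and an average log2 CPM of at least 0. Genes outside that rule, such as mt-Nd5, had larger differences than some of these. All are given on the log2 scale as the combination enrichment less that mean. Mitochondrial RNAs gave mt-Te, the light-strand glutamate tRNA, at +8.61, and mt-Co2, a subunit of cytochrome c oxidase, at +5.14. In combination tumours mt-Co2 had only 2.125, 2.63 and 0.700 CPM in J2 libraries and 1.375, 0.126 and 0.558 CPM in inputs. These groups overlapped, and J2 against input was not past the threshold (adjusted p = 0.172). Small RNA genes gave Snora73b at +5.46 and Mir703 at +4.97. The mRNAs were Gnao1 at +7.41, Zfp972 at +6.24, Itln1 at +5.27 and Rab4b at +4.79. These sizes rest in part on the docetaxel tumours, where J2 over input was -7.58 for mt-Te, -5.11 for Gnao1, -2.65 for Zfp972 and -3.26 for Itln1. In the same order the values were +1.92, +1.32, +1.61 and +1.91 in vehicle and -0.01, +1.68, +0.62 and +0.35 in ORIN1001 tumours. None of these calls was lost without docetaxel tumour 3. Without combination tumour 2 the difference was not past the threshold for Zfp972 (adjusted p = 0.0599) and Itln1 (adjusted p = 0.114).

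Among the differences in the other direction were Snhg14 at -4.91, Fut9 at -4.56, Eda2r, a receptor of the TNF family, at -4.16, and Rrh, an opsin, at -4.12. BC055308 at -8.18, P2ry10b at -7.87, Neu2 at -7.43 and Ldb2 at -6.08 had no J2 count in combination tumours, so these fitted values depend on the prior count and are no measure of size. Without combination tumour 3 the difference did not pass for Neu2 (adjusted p = 0.0555) and Ldb2 (adjusted p = 0.125).

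Transposable elements gave the young L1Md family at +2.75, GSAT_MM at +2.94 and LTRIS4 at +2.76. RLTR53B_Mm was at -7.76, again with no J2 count in combination tumours.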

How the results depend on the processing

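For genes, the number called by the edgeR test of J2 against input stayed within 1.5 times of 6375 under every alternative run, except that leaving out 1 combination tumour gave 3248 to 5282, the lowest without tumour 3. Element calls moved most. Against 43 names, there were 666 with library totals alone, 123 with no filter, 26 at an average log2 CPM of at least 1, 163 with DESeq2, 596 with limma-voom, 607 with combination libraries alone, 745 without docetaxel tumour 3 and 2 to 32 with 1 combination tumour left out. Against 2 families, there were 8, 14 and 12 with library totals alone, no filter and docetaxel tumour 3 left out, and 1 to 2 with 1 combination tumour left out. Without the replicate block that pairs J2 with input, 7 names and 1 family were called. For the difference from the other treatments, against 3 names, there were 579 with library totals alone, 37 with no filter, 1 at an average log2 CPM of at least 1, 104 with DESeq2, 766 with limma-voom, 845 without docetaxel tumour 3, 0 with no replicate block and 0 to 15 with 1 combination tumour left out. The cause was not tested.

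With library totals alone the sign turned for mt-Co1 (-0.15), mt-Nd2 (-0.65), Oasl1 (-0.16), Oas1b (-0.065), Adar (-0.37), Edem1 (-0.065), Ern1 (-0.58) and Xbp1 (-0.62). It turned for mt-Cytb with no replicate block (+0.41) and for mt-Nd2 with limma-voom (-0.0898). With 1 combination tumour left out the values ran from -1.50 to +1.09 for mt-Cytb, -0.27 to +1.48 for mt-Co1, -1.41 to +1.92 for mt-Nd2, -0.54 to +0.32 for Trp53, -0.50 to +0.42 for Krt8 and -0.25 to +0.0624 for Pdgfra. Low counts limit the small RNA genes, and the shallow J2 libraries limit what a count of 0 can show.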
